A study of Mus musculus with 20 samples.

Results

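Basal keratinocytes of the mouse epidermis that lack Thy1 at their surface were set against the stem cells of the hair follicle. The members compared were the 15012 genes, of 53380 in the table, with a normalized count (reads divided by the size factor of the library) of at least 10 in at least 3 of the 8 libraries of these populations. Both came from dorsal epidermis, dissociated and sorted by flow cytometry. The Thy1- cells (4 libraries) were sorted as positive for integrin-α6, an adhesion receptor of basal cells, and for Sca1, a surface protein encoded by *Ly6a*, and negative for Thy1. The hair follicle stem cells (HFSCs, 4 libraries) were sorted as CD34+ and Sca1- per the labels, and as integrin-α6+ too per the study. CD34 is the surface marker of the bulge, the part of the follicle where these cells reside. All 8 libraries carry the label of no treatment and the genotype Thy1.2CreERT2-Rosa26-EYFP, a mouse line in which a drug-inducible Cre recombinase under Thy1 control switches on a yellow fluorescent protein, whereas the study's methods name wild-type C57BL/6J mice. The design text gives mice 8 weeks of age, but the labels give ages that rise by 1 week per sample, from 8 to 11 weeks in HFSCs and from 24 to 27 weeks in Thy1- cells, so labelled age and population cannot be told apart. Libraries were made with more than one kind of kit and in 2 batches, and the labels give neither for a single library. The study describes pooled mice for the sort and counts mice elsewhere, so p-values here measure only the spread between libraries, which may not be that between mice. That spread was estimated over all 20 libraries of the 5 populations of the series and not over the 8 alone.

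The interfollicular epidermis is renewed from basal cells, which are attached to the basement membrane by hemidesmosomes, divide, and enter the suprabasal layers as they differentiate. The bulge holds stem cells that rest for most of the hair cycle and that express CD34, the R-spondin receptor LGR5 and the transcription factors LHX2, TBX1, SOX9 and NFATC1. BMP signals favour rest in these cells, WNT signals favour growth of the follicle, and the bulge lays down a matrix of its own. Both populations express the basal keratins 5 and 14.

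The 8 libraries held 7798195 to 12751802 reads on genes, of which 13.1% to 41.5% fell on the ribosomal RNA gene *Rn45s*. Replicate 4 of each population stood apart. In HFSC replicate 4, mitochondrially encoded genes took 31.5% of the reads outside *Rn45s*, against 12.0% to 15.0% in the other HFSC libraries. Its *Fos* value, a gene that responds to stimulation within minutes, was 399, against 12337 to 13931 in the others, and its summed value of 10 Langerhans cell markers was 430.2, against 3951 to 6619. In Thy1- replicate 4, 21150 genes had a read, against 28836 to 32129 in the other Thy1- libraries and 21865 to 24585 in HFSCs. The 1406 olfactory receptor genes, which keratinocytes are not known for, summed to 2423 in this library, 7546 to 14978 in the other Thy1- libraries and 2063 to 5957 in HFSCs, and the part of this base in other low values was not tested. *Xist*, the RNA of the inactive X chromosome of females, ran from 7164 to 19769 in Thy1- cells and from 8.41 to 11898 in HFSCs. Results are therefore given with and without both replicates where the difference matters.

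**Figure D1:**
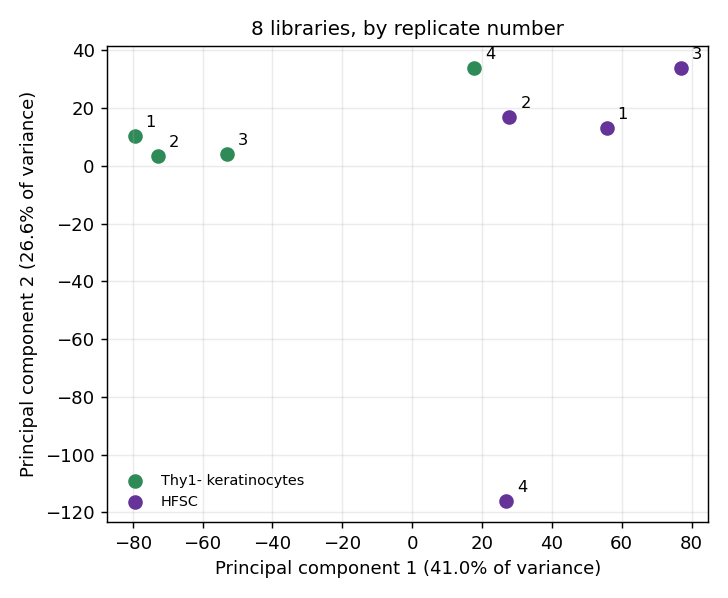
Position of the 8 libraries on the first 2 principal components of log2(value + 1) over the genes compared, with the replicate number beside each point and the share of variance on each axis. HFSC replicate 4 lies at -116 on the second component, and Thy1- replicate 4 lies at 17.7 on the first, where the other Thy1- libraries lie between -79.4 and -53.1 and HFSCs between 26.9 and 77.0.

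The 4 genes taken as marks of HFSCs separated the libraries in every case. *Cd34* encodes a protein used in the sort, and the other genes were chosen as known HFSC markers. Their differences are therefore a check of the label and not an independent result. *Cd34* (ENSMUSG00000016494, chromosome 1 from 194938819 to 194961279, mm10, as the table gives it) had normalized counts of 43.8, 96.0, 103 and 73.0 in Thy1- replicates 1 to 4 and of 1930.0, 1599.8, 2622 and 2032 in HFSC replicates 1 to 4. The Thy1- mean was 3.85% of the HFSC mean (log2 fold change -4.73 ± 0.31 (SE), adjusted p = 3.56e-08, limma). Log2 fold changes, shortened to log2 where several stand together, are Thy1- over HFSC on log2(value + 1), and adjusted p-values are limma's over all 15012 genes. For *Lgr5* (ENSMUSG00000020140, chromosome 10 from 115450311 to 115587780) the Thy1- libraries held 23.1, 46.3, 51.3 and 36.9 and the HFSC libraries 665, 443, 545 and 572 (log2 fold change -3.83 ± 0.36 (SE), adjusted p = 1.68e-06). The values of *Lhx2*, a LIM homeodomain factor of the bulge, were 46.2, 85.6, 53.6 and 83.6 against 757, 1113, 1072 and 1001 (log2 fold change -3.89 ± 0.58 (SE), adjusted p = 2.94e-04). In these genes the populations were separated by far more than the spread within either. For *Tbx1*, a T-box factor, they were 35.3, 52.1, 35.5 and 41.8 against 568, 1011, 471 and 633 (log2 fold change -3.95 ± 0.43 (SE), adjusted p = 9.67e-06). Summed over the 4 genes, Thy1- cells had 148 to 280.0, HFSCs 3920.0 to 4711 and the dendritic epidermal T cells (DETCs) of the same series 107 to 329, so the keratinocyte sums lay within the range of a population of another lineage. In bulk samples, fewer cells of a kind and less RNA per cell cannot be told apart.

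The other proteins used in the sort differed less in their transcripts. *Ly6a*, which encodes Sca1, had 97.3, 94.9, 104 and 148 in Thy1- cells and 78.5, 42.4, 72.7 and 35.0 in HFSCs, with no overlap of the libraries, but the difference did not pass the test (log2 fold change 1.002 ± 0.45 (SE), adjusted p = 0.175). *Itga6*, which encodes integrin-α6, ran from 4562 to 6564 and from 2005 to 4460.2 (log2 fold change 0.76 ± 0.36 (SE), adjusted p = 0.2). *Thy1* was low on both sides, 69.1 ± 6.39 (SD, n = 4) against 57.4 ± 28.5 (SD, n = 4; log2 fold change 0.46 ± 0.38 (SE), adjusted p = 0.468), and its difference was -0.014 without HFSC replicate 4.

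With the threshold set at an adjusted p of 0.05, limma called 1142 of the 15012 genes (7.61%). In Thy1- cells 482 of them (3.21%) were higher and 660 (4.4%) lower. The falls were the larger changes: 239 genes fell and 37 rose at least 4-fold, and 89 fell and 2 rose at least 8-fold. In 1244 of all genes tested (8.29%) every Thy1- library lay below every HFSC library, in 976 (6.5%) above, and 607 and 399 of these were called. The median log2 fold change of all genes was -0.003. Counts of list members called, given below, are to be read beside the shares of 3.21% higher and 4.4% lower. Without HFSC replicate 4, 1047 genes were called, 343 (2.28%) higher and 704 (4.69%) lower, and 276 of the 482 and 488 of the 660 were among them. Without Thy1- replicate 4 the counts were 960 (6.39%) and 871 (5.8%), and without replicate 4 of both populations 1055 (7.03%) and 1063 (7.08%). The counts were lowest without one of the other Thy1- libraries: 169 (1.13%) higher and 375 (2.5%) lower without replicate 1, 238 (1.59%) and 461 (3.07%) without replicate 2, and 205 (1.37%) and 421 (2.8%) without replicate 3. Without HFSC replicates 1, 2 and 3 in turn, 2.24%, 3.66% and 2.18% of the genes were higher and 3.38%, 4.14% and 3.28% lower. With the libraries rescaled to the same total outside *Rn45s*, which moved the median of all genes to 0.13, 877 were higher and 504 lower. Quantile normalization gave 896 higher and 813 lower. The larger number of falls thus depended on the scale, and on the deposited scale it was not kept without Thy1- replicate 4.

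**Figure D2:**
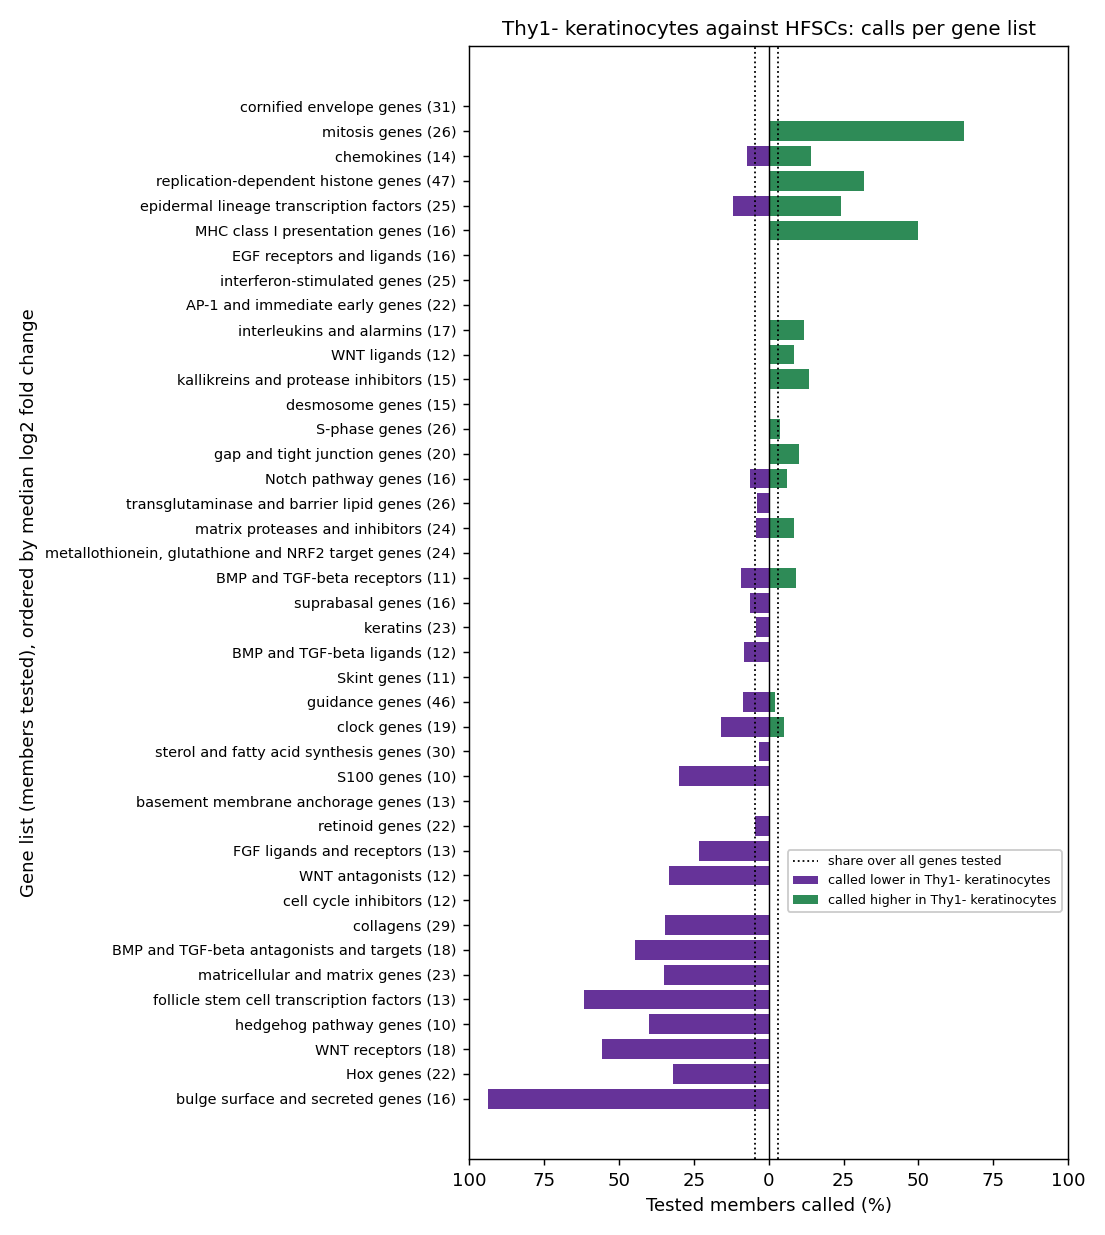
Share of the tested members of each gene list called higher (right, green) or lower (left, purple) in Thy1- cells, for lists with at least 10 tested members, ordered by their median log2 fold change. Dotted lines mark the shares over all genes tested, 3.21% higher and 4.4% lower. Bulge, WNT receptor, matrix and Hox lists extend to the left, mitosis and MHC class I lists to the right.

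The largest falls among genes with a mean of at least 100 and no overlap of the libraries were a mixed group of secreted, matrix and signalling genes. *Angptl7*, which encodes a secreted angiopoietin-like protein, had 10.9, 24.3, 22.1 and 35.2 in Thy1- cells and 601, 288, 1901 and 1529 in HFSCs (log2 fold change -5.23 ± 0.73 (SE), adjusted p = 1.58e-04). *Krt24* (ENSMUSG00000020913, chromosome 11 from 99279959 to 99285262), a type I keratin, had 17.0, 6.94, 20.5 and 18.0 against 324, 566, 684 and 711 (log2 fold change -5.14 ± 0.58 (SE), adjusted p = 1.62e-05). It was the only one of 23 tested keratins called, against 7.61% of all genes tested. *Il31ra*, the receptor chain for the itch cytokine interleukin-31, had 54.7, 44.0, 113 and 84.4 against 2039.7, 1141, 2523 and 5301 (log2 fold change -5.07 ± 0.46 (SE), adjusted p = 1.48e-06). *Chat*, the enzyme that makes acetylcholine, had 8.51, 19.7, 20.5 and 21.3 against 553, 338, 427 and 708 (log2 fold change -4.80 ± 0.66 (SE), adjusted p = 1.28e-04). In each of the 4 the lowest HFSC value stood more than 8 times above the highest Thy1- value.

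The rest of this group moved in the same way. *Grem1*, a secreted BMP antagonist, had means of 48.5 ± 21.0 and 1050.1 ± 189 (SD, n = 4 each; log2 -4.53, adjusted p = 2.62e-06), and *Trabd2b*, a membrane protease that acts on WNT ligands, 40.9 ± 12.8 and 809 ± 197 (log2 -4.29, adjusted p = 2.63e-07). The potassium channel gene *Kcnk2* had 21.9 ± 11.1 and 452 ± 63.7 (log2 -4.41, adjusted p = 4.16e-07), *Pdzrn4* 29.5 ± 11.6 and 725 ± 289 (log2 -4.57, adjusted p = 4.83e-06), and the collagen chain *Col8a2* 26.1 ± 7.23 and 604 ± 168 (log2 -4.48, adjusted p = 0.00461). These genes, with *Cd34*, kept an adjusted p of 0.0492 or less under all 21 other settings of the processing that were tried, apart from those chosen after seeing the data.

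**Figure D3:**
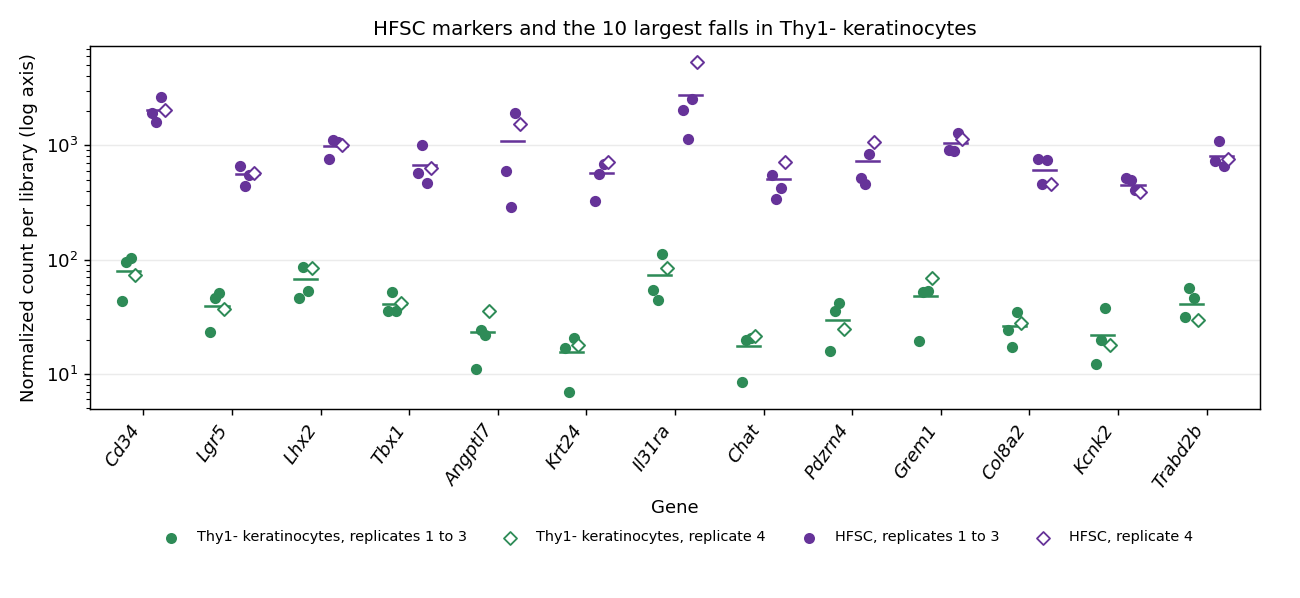
Normalized count of each library (log axis) for the 4 HFSC markers and the 10 largest falls in Thy1- cells, with *Cd34* in both sets. Short lines are means of 4 libraries, and open diamonds are replicate 4. All Thy1- values lie below all HFSC values in each gene.

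Of 13 transcription factors of follicle stem cells, 8 fell and 0 rose (median log2 fold change -0.87), against 4.4% and 3.21% of all genes tested. The list was drawn from factors known in HFSCs and includes the markers *Lhx2* and *Tbx1*, so its direction is not independent of the label. Besides *Lhx2* and *Tbx1*, the falls were graded. *Tcf7l1*, a TCF factor that can repress WNT targets, had 42.6, 40.5, 24.4 and 36.9 in Thy1- cells and 136, 287, 130.4 and 114 in HFSCs (log2 fold change -2.10 ± 0.45 (SE), adjusted p = 0.00636), and its relative *Tcf7l2* 212, 289, 237 and 294 against 493, 648, 521 and 599.8 (log2 fold change -1.13 ± 0.16 (SE), adjusted p = 2.17e-04). *Nfib*, a nuclear factor I gene, fell from 7025 ± 828 to 2859 ± 525 (SD, n = 4 each; log2 -1.31, adjusted p = 0.00981). *Nfatc1* (log2 -0.87, adjusted p = 0.012), *Runx1* (log2 -0.86, adjusted p = 0.0161) and *Foxp1* (log2 -0.77, adjusted p = 0.0236) fell by less than a factor of 2, and their libraries did not overlap. Of the 5 factors not called, 3 were *Sox9* (log2 -0.74, adjusted p = 0.238), *Hopx* (log2 -0.80, adjusted p = 0.06) and *Foxc1* (log2 -1.09, adjusted p = 0.183). In these, HFSC replicate 4 was the lowest HFSC library, at 1235, 217 and 429.5 against at least 3587, 441 and 786 in the others. Without it, *Sox9* (log2 -1.17, adjusted p = 0.0413) and *Hopx* (log2 -1.08, adjusted p = 0.00552) passed and *Foxc1* did not (log2 -1.31, adjusted p = 0.142), and 10 of the 13 were called. Over all 8 ways of leaving out 1 library the count was 6 to 10.

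The bulge list of surface and secreted genes had the highest share of falls among lists of at least 10 tested genes: 15 of 16 fell (median -3.02), and 12 to 16 when any 1 library was left out. Of all genes tested, 4.4% fell. The list was drawn from genes known in HFSCs, so its direction is not independent of the label. *Postn*, which encodes the matrix protein periostin, was the most abundant, with 615, 1494, 1906 and 1471 in Thy1- cells and 8996, 5962, 12204 and 15338 in HFSCs (log2 fold change -2.98 ± 0.62 (SE), adjusted p = 0.00546). *Ctgf*, a matricellular protein of the CCN family, had 85.1, 222, 78.1 and 219 against 3261, 936, 2902 and 1943 (log2 fold change -3.91 ± 0.58 (SE), adjusted p = 2.94e-04). *Dkk3*, a dickkopf family member, had 29.2, 62.5, 91.5 and 80.3 against 674, 1147, 1171 and 1249 (log2 fold change -4.07 ± 0.41 (SE), adjusted p = 4.21e-06). In these 3 genes every Thy1- library lay below every HFSC library. The latent TGF-beta binding protein *Ltbp2* (log2 -3.95, adjusted p = 1.40e-04), the growth factor *Fgf1* (log2 -3.39, adjusted p = 0.00297) and the calcium-binding protein *S100a4* (log2 -3.07, adjusted p = 7.35e-05) also fell without overlap. *Fgf18*, a growth factor linked to follicle rest, had 17.0, 38.2, 26.8 and 54.9 against 755, 203, 485 and 46.2, so that HFSC replicate 4 overlapped Thy1- cells (log2 fold change -2.91 ± 0.65 (SE), adjusted p = 0.00931), and *Bmp6* did too (log2 -1.95, adjusted p = 0.044). *Cxcl14*, a chemokine of epithelia, remained at 556 ± 135 in Thy1- cells against 2262 ± 1185 (SD, n = 4 each; log2 -1.93, adjusted p = 0.00115). *Cd200*, a surface protein that restrains immune cells, had 62.0, 108, 86.8 and 158 against 316, 227, 334 and 522 and did not pass the test (log2 fold change -1.76 ± 0.56 (SE), adjusted p = 0.06).

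Collagen chains and other matrix genes were lower in Thy1- cells where they were called. Among 29 tested collagen genes, 10 fell and 0 rose (median -0.43), with 7 to 10 falls when any 1 library was left out. Over all genes tested the shares were 4.4% and 3.21%. The α1 and α2 chains of collagen VI, *Col6a1* and *Col6a2*, had 54.7, 78.7, 63.9 and 89.3 against 1188, 1485, 1436 and 664 (log2 fold change -3.996 ± 0.31 (SE), adjusted p = 2.63e-07) and 9.73, 32.4, 18.9 and 36.1 against 429, 560.4, 464 and 321 (log2 fold change -4.26 ± 0.39 (SE), adjusted p = 1.48e-06). The chains *Col4a3* (log2 -2.80, adjusted p = 0.00455) and *Col4a4* (log2 -2.43, adjusted p = 0.00846) of basement membrane collagen IV had larger log2 fold changes than *Col4a1* (log2 -1.20, adjusted p = 0.049) and *Col4a2* (log2 -1.11, adjusted p = 0.0473). *Col12a1*, a collagen that binds to fibrils, fell from 1529.7 ± 228 to 411 ± 55.5 (SD, n = 4 each; log2 -1.89, adjusted p = 1.00e-04), and *Col5a2* fell 13.6-fold by the ratio of means (log2 -3.60, adjusted p = 4.11e-05). *Col17a1*, the collagen of hemidesmosomes, was high in both, 24299 ± 4593 and 28659.9 ± 7459, and was not called (log2 -0.21, adjusted p = 0.762, 95% interval -1.02 to 0.59).

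Of 23 matricellular and matrix genes, 8 fell and 0 rose (median -0.57), against 4.4% and 3.21% of all genes tested. *Sparc*, a collagen-binding protein, had 71.8, 87.9, 84.4 and 96.7 in Thy1- cells and 585, 1345, 909.8 and 452 in HFSCs (log2 fold change -3.14 ± 0.30 (SE), adjusted p = 1.76e-06). *Egfl6*, a matrix protein that bulge cells lay down around nerve endings, had 48.6, 50.9, 55.2 and 33.6 against 156, 265, 212 and 377 (log2 fold change -2.35 ± 0.28 (SE), adjusted p = 2.81e-05), and *Npnt*, the integrin ligand nephronectin by which the bulge anchors the muscle of the follicle, 83.9, 132, 109.6 and 97.5 against 331, 1405, 349.6 and 317 (log2 fold change -2.18 ± 0.40 (SE), adjusted p = 0.00225). The fibulin gene *Fbln1* (log2 -2.53, adjusted p = 3.63e-04) and the protease inhibitor *Timp2* (log2 -2.55, adjusted p = 5.20e-05) moved the same way. The 8 fibroblast markers, which include *Col1a2*, summed to 123 to 230.2 in Thy1- cells and 226 to 778 in HFSCs, with HFSC replicate 2 the highest. Of the 4 that could be tested, 0 were called by limma, with 1 at an unadjusted p under 0.05, 0 by edgeR and 1 by DESeq2. The defining marker *Lum* was at 0 in 1 Thy1- library and 3 HFSC libraries, and the part of fibroblast RNA in the matrix genes was not tested. *Col1a2* had 203 ± 27.0 in HFSCs and 66.3 ± 20.5 in Thy1- cells (SD, n = 4 each; log2 -1.65, adjusted p = 0.0505).

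WNT receptor genes were lower in Thy1- cells where they were called. WNT ligands bind Frizzled receptors with LRP co-receptors, and LGR receptors raise the response by binding R-spondins. Of 18 tested receptor genes, 10 fell and 0 rose (median -1.20), against 4.4% and 3.21% of all genes tested. The count of falls was 6 to 10 when any 1 library was left out, with 6 without Thy1- replicate 1, 6 without Thy1- replicate 3 and 9 without HFSC replicate 4. *Fzd2* had 29.2, 42.8, 26.8 and 40.2 in Thy1- cells and 289.7, 589, 435 and 298 in HFSCs (log2 fold change -3.46 ± 0.65 (SE), adjusted p = 0.00259). For *Fzd3* the values were 82.7, 132, 130.2 and 134 against 444, 349.7, 532 and 1083 (log2 fold change -2.21 ± 0.38 (SE), adjusted p = 0.00114). *Lgr4*, the close relative of *Lgr5*, had 339, 480.2, 457 and 564 against 870.4, 1618, 965 and 812 (log2 fold change -1.18 ± 0.23 (SE), adjusted p = 0.00389), and *Lrp6* had the smallest of the called changes (log2 -0.68, adjusted p = 0.00995). *Fzd1* (log2 -1.47, adjusted p = 0.0167) and *Fzd7* (log2 -1.30, adjusted p = 0.0123) fell as well. Beside *Lgr5*, which is also one of the HFSC markers and so not independent of the label, the remaining calls were *Ror1*, *Ror2* and *Fzd9*. These had HFSC means of 122, 48.3 and 33.3, and those of *Ror2* and *Fzd9* fell to 7.05 and 5.43. At these means neither *Ror2* nor *Fzd9* could reach the minimum value in 3 Thy1- libraries, so the filter itself favoured a fall in them. How many other receptor genes did so was not counted. With no filter, where the adjustment ran over more genes, 8 of 18 receptor genes fell and 0 rose. Secreted or intracellular antagonists were called in 4 of 12 cases, all lower: *Dkk3*, the WNT-binding *Sfrp1* (109, 141, 209.8 and 124 against 882, 4050.0, 1253 and 1176; log2 fold change -3.41 ± 0.41 (SE), adjusted p = 2.94e-05), *Wif1* (log2 -3.36, adjusted p = 0.00223) and the feedback inhibitor *Nkd1* (log2 -2.57, adjusted p = 0.00241). Of these antagonists, *Dkk3* is also in the bulge list, so its fall is not independent of the label. Among 12 ligands, 1 was called: *Wnt16* had 184, 83.3, 178 and 134 in Thy1- cells against 45.0, 33.7, 67.3 and 11.2 (log2 fold change 2.04 ± 0.47 (SE), adjusted p = 0.0104).

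In the BMP and TGF-beta pathway most calls were in antagonists and targets, where 8 of 18 fell and 0 rose (median -0.55). Of 12 ligands, 1 fell, and over all genes tested 4.4% fell and 3.21% rose. When any 1 library was left out, 6 to 8 antagonists and targets fell, with 1 rise without Thy1- replicate 4. Besides *Grem1*, the BMP antagonist *Nog* had 8.51, 10.4, 18.1 and 24.6 in Thy1- cells and 158, 135, 145 and 119 in HFSCs (log2 fold change -3.20 ± 0.69 (SE), adjusted p = 0.00727). The *Id* genes encode inhibitors of helix-loop-helix factors and are direct targets of BMP signalling: *Id2* had 107, 109.9, 147 and 152 against 681, 566, 665 and 339.8 (log2 fold change -2.09 ± 0.28 (SE), adjusted p = 1.09e-04), and *Id4* 65.7, 153, 93.1 and 122 against 352, 447, 381 and 274 (log2 fold change -1.78 ± 0.52 (SE), adjusted p = 0.0396). *Smad6*, an inhibitory SMAD, had means of 12.0 against 55.7 (log2 -2.21, adjusted p = 0.0215). The TGF-beta binding proteins *Ltbp2* and *Ltbp3* (log2 -1.48, adjusted p = 9.35e-04) and the follistatin-like gene *Fstl1* (log2 -2.29, adjusted p = 0.00927) completed the set. *Ltbp2* is also in the bulge list, so its fall is not independent of the label. Of 11 receptors, the type I receptor *Acvrl1* fell (9.73, 16.2, 13.4 and 27.1 against 57.7, 91.2, 60.9 and 93.2; log2 fold change -2.18 ± 0.31 (SE), adjusted p = 1.60e-04), and the type II receptor *Tgfbr2* rose (1059, 661, 889.8 and 689 against 538, 475, 455 and 243; log2 fold change 0.98 ± 0.26 (SE), adjusted p = 0.0259), the latter not without HFSC replicate 4 (log2 0.73, adjusted p = 0.0705) or Thy1- replicate 1 or 3.

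Hedgehog pathway genes showed 4 falls and 0 rises among 10 tested (median -1.14), against 4.4% and 3.21% of all genes tested. The falls numbered 3 to 5 when any 1 library was left out. *Gli1*, a transcriptional target and effector of the pathway, had 24.3, 27.8, 18.9 and 32.0 in Thy1- cells and 126, 189, 128 and 298 in HFSCs (log2 fold change -2.73 ± 0.41 (SE), adjusted p = 3.63e-04), and the effector *Gli2* 37.7, 81.0, 68.6 and 94.3 against 211, 243, 298 and 345 (log2 fold change -1.999 ± 0.32 (SE), adjusted p = 6.92e-04). The co-receptors *Boc* (log2 -1.27, adjusted p = 0.0248) and *Cdon* (log2 -1.01, adjusted p = 0.00508) fell less. The receptor and target *Ptch1* had 241, 179, 167 and 181 against 195, 232, 275 and 469, overlapped, and was not called (log2 fold change -0.54 ± 0.23 (SE), adjusted p = 0.158).

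Hox genes, which record position along the body axis, fell in 7 of 22 tested cases and rose in 0 (median -1.26). Over all genes tested, 4.4% were called lower and 3.21% higher. Only 3 fell without Thy1- replicate 1, 4 without Thy1- replicate 2, 4 without Thy1- replicate 3 and 4 without HFSC replicate 1, and the other ways of leaving out 1 library gave 5 to 8. In 13 of the 22 every Thy1- library lay below every HFSC library, against 8.29% of all genes tested. *Hoxd8* and *Hoxd4* passed the minimum value through HFSC libraries alone, so the filter itself favoured a fall in them. How many other members did so was not counted, and the comparison with all genes tested does not allow for it. With no filter, where the adjustment ran over more genes, 4 of 38 Hox genes fell and 0 rose (median -0.82). The levels of the tested Hox genes were low: the called genes had HFSC means of 19.3 to 130.5. *Hoxd8* had 1.22, 6.94, 8.68 and 2.46 in Thy1- cells and 86.6, 59.7, 93.0 and 50.5 in HFSCs (log2 fold change -3.85 ± 0.59 (SE), adjusted p = 3.89e-04), and *Hoxc8* 34.0, 39.3, 48.9 and 56.6 against 125, 165, 103 and 129.6 (log2 fold change -1.53 ± 0.35 (SE), adjusted p = 0.0104). *Hoxd4* had at most 2 reads in a Thy1- library and 19.3 ± 10.6 (SD, n = 4) in HFSCs (adjusted p = 0.00636). The members came from all 4 clusters, with *Hoxa3* (log2 -0.98, adjusted p = 0.0318), *Hoxb6* (log2 -1.40, adjusted p = 0.044), *Hoxb9* (log2 -1.41, adjusted p = 0.0234) and *Hoxc6* (log2 -1.63, adjusted p = 0.0151) beside these. Neighbouring Hox genes can share reads of overlapping transcripts.

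Of 46 guidance genes, 4 were called lower and 1 higher (median -0.030), against 4.4% and 3.21% of all genes tested. Every Thy1- library lay below every HFSC library in 7 of them and above in 6, against 8.29% and 6.5% of all genes. *Sema3e*, a secreted semaphorin, had 53.5, 139, 151 and 166 in Thy1- cells and 1123, 1069.8, 1713 and 2035 in HFSCs (log2 fold change -3.60 ± 0.45 (SE), adjusted p = 4.34e-05). The receptors *Plxna2* (754 ± 119.7 against 2736 ± 437; log2 -1.86, adjusted p = 0.0014) and *Robo2* (log2 -1.81, adjusted p = 0.00442) fell, as did *Neo1* (log2 -0.75, adjusted p = 0.00981), whereas *Sema4d*, a membrane semaphorin, rose from 71.6, 91.2, 80.2 and 28.7 to 207, 182, 169 and 128 (log2 fold change 1.42 ± 0.26 (SE), adjusted p = 0.00242). Among 13 genes of the FGF family and its feedback, 3 fell, *Fgf1*, *Fgf18* and the receptor *Fgfr1* (761 ± 208 against 2201 ± 462; log2 -1.55, adjusted p = 0.00517). *Fgf1* and *Fgf18* are also in the bulge list, so their falls are not independent of the label. *Tgm5*, a transglutaminase counted with the barrier genes, had 62.0, 125, 149 and 139 against 1359.8, 1614, 1699 and 1658 (log2 fold change -3.79 ± 0.31 (SE), adjusted p = 3.99e-07), the only call among 26 barrier genes.

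Markers of other cell types were given a separate count. The HFSC gate was CD34+ and Sca1- per the labels, and integrin-α6+ too per the study, and how far it kept out other cells was not tested. Of 6 tested melanocyte markers, *Mitf* (86.3, 161, 144 and 171 against 720.3, 453, 754 and 762; log2 fold change -2.26 ± 0.29 (SE), adjusted p = 5.20e-05) and *Dct* (38.9, 56.7, 32.3 and 64.8 against 65.8, 198, 119.7 and 193; log2 fold change -1.49 ± 0.39 (SE), adjusted p = 0.0234) fell, *Dct* not without HFSC replicate 2 or 4 or Thy1- replicate 1 or 3. The 8 melanocyte markers summed to 175 to 317 in Thy1- cells, 761 to 1069 in HFSCs and 282 to 399.7 in DETCs. The other 4 tested had HFSC means of 16.6 to 29.7 and were not called. *Mlana*, not tested, was at 0 in 1 Thy1- and 2 HFSC libraries and highest in HFSC replicate 2, at 10.9. *Cspg4*, listed as a pericyte marker, fell from 1282 ± 231 to 355 ± 153 (SD, n = 4 each; log2 -1.92, adjusted p = 8.52e-04), while *Rgs5*, another marker of that list, was at 0 in all HFSC libraries. Of the Langerhans and T cell markers, 0 of 9 and 0 of 10 tested were called by limma, edgeR or DESeq2, and 0 had an unadjusted p under 0.05. Without HFSC replicate 4, the library lowest in the sum of these markers, 2 of the 9 Langerhans markers were called lower in Thy1- cells (median 0.20 with it and -1.23 without), and without replicate 4 of both populations 4 (median -1.34). The T cell markers summed to 314 to 483 in Thy1- cells and 202 to 543 in HFSCs, against 33649 to 63834 in DETCs, and the Langerhans markers to 2392 to 3329.7 and 430.2 to 6619. Sebaceous markers summed to 90.0 to 397 and 85.5 to 1701, with HFSC replicates 1 and 3 the highest. Of the Schwann cell markers 1 of 2 tested rose, *Mbp* (log2 1.05, adjusted p = 0.0247). The part of these cells in the differences was not tested.

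The largest rises were smaller. HFSC replicate 4 held the lowest of the 8 values in 306 of the 482 genes called higher and the highest in 297 of the 660 called lower. *Ch25h*, an enzyme that makes an oxysterol from cholesterol, had 412, 201, 434 and 150.0 in Thy1- cells and 8.08, 101.01, 80.2 and 5.61 in HFSCs (log2 fold change 3.36 ± 0.80 (SE), adjusted p = 0.0137; without HFSC replicate 4 log2 2.69, adjusted p = 0.0448). *Adam8*, a membrane metalloprotease, had 1228, 510.2, 789 and 234 against 86.6, 201, 138 and 14.0 (log2 fold change 2.91 ± 0.65 (SE), adjusted p = 0.00927; log2 2.11, adjusted p = 0.022 without that library). The interferon-inducible gene *Ifi202b* had 5385, 3102, 3326 and 1386 against 977, 979.6, 869 and 37.8 (log2 fold change 2.80 ± 0.75 (SE), adjusted p = 0.0264; log2 1.65, adjusted p = 0.03 without it). *Tnfaip3*, an inhibitor of NF-kappaB known as A20, had 5621, 7568, 7552 and 5141 against 2583, 2852, 3033 and 220.0 (log2 fold change 2.10 ± 0.56 (SE), adjusted p = 0.0259; log2 1.18, adjusted p = 0.00902 without it). In all 4 the Thy1- libraries stayed above every HFSC library.

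The other members of this group were *Fam43a* (log2 2.52, adjusted p = 0.00604), the cyclic AMP phosphodiesterase *Pde4b* (log2 2.29, adjusted p = 0.0221), the NF-kappaB cofactor *Bcl3* (log2 2.25, adjusted p = 0.0204), the stress gene *Gadd45b* (log2 2.20, adjusted p = 0.044), *Ifi203* (log2 2.19, adjusted p = 0.00799) and *Ripk3*, a kinase of necroptosis (log2 2.10, adjusted p = 0.00806). Without HFSC replicate 4, 9 of the 10 were still called, with log2 fold changes of 1.18 to 2.69, and *Gadd45b* was not (adjusted p = 0.0619). Of the 10, 6 were not called without Thy1- replicate 1, 6 without Thy1- replicate 3, 4 without Thy1- replicate 2 and 2 without HFSC replicate 1, while *Adam8*, *Fam43a*, *Ifi203* and *Ripk3* were called whichever library was left out. Thy1- replicate 4 was the lowest Thy1- library in all 10, at 150.0 for *Ch25h* and 234 for *Adam8*.

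**Figure D4:**
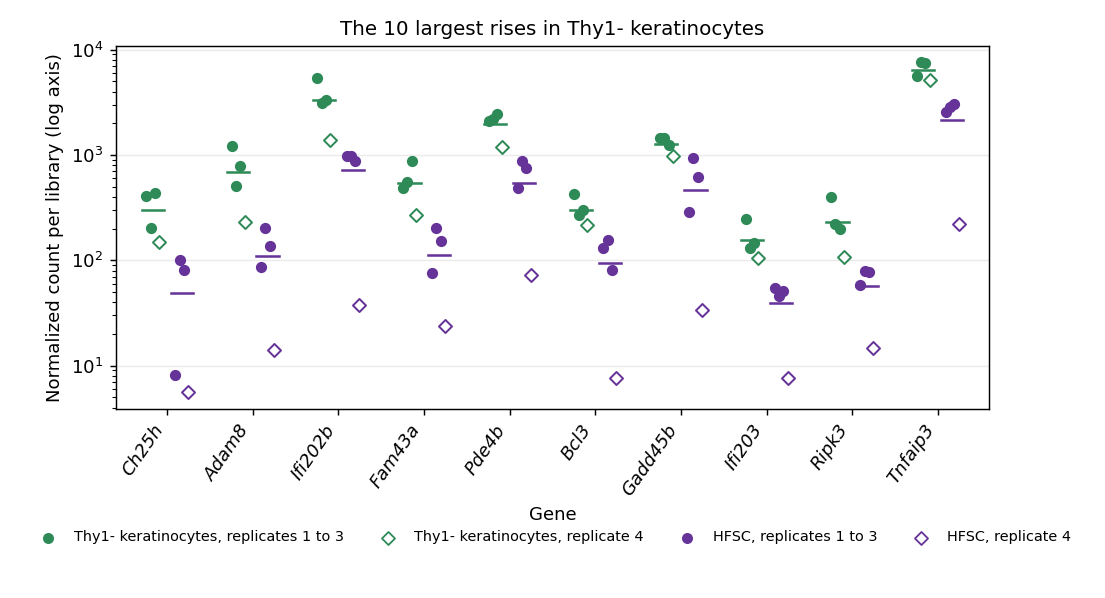
Normalized count of each library (log axis) for the 10 largest rises in Thy1- cells. Short lines are means of 4 libraries, and open diamonds are replicate 4, which is the lowest HFSC library and the lowest Thy1- library in each of the 10 genes.

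Genes of mitosis had the highest share of rises among lists of at least 10 tested genes. Of 26 tested, 17 rose and 0 fell (median 1.17), against 3.21% of all genes called higher, and 20 showed no overlap of the libraries, against 6.5% of all genes. The count of rises was 11 to 16 when any 1 library was left out, with 11 without Thy1- replicate 2, 12 without HFSC replicate 3 and 13 without Thy1- replicate 1. *Mki67*, the proliferation marker Ki-67, had 1939.7, 3727, 2441 and 1926 in Thy1- cells and 825, 941, 897 and 959 in HFSCs (log2 fold change 1.42 ± 0.24 (SE), adjusted p = 0.00114). *Top2a* (ENSMUSG00000020914, chromosome 11 from 98992943 to 99024189), the topoisomerase that untangles replicated DNA, had 946, 1391, 932 and 1038 against 506, 467, 406 and 427 (log2 fold change 1.24 ± 0.20 (SE), adjusted p = 6.60e-04). *Ccnb1* (ENSMUSG00000041431, chromosome 13 from 100778650 to 100786570), the cyclin that drives entry into mitosis, had 80.3, 161, 89.1 and 109.8 against 38.1, 55.4, 32.1 and 20.3 (log2 fold change 1.60 ± 0.30 (SE), adjusted p = 0.00282). Thy1- replicate 2 was the highest library in all 3. The kinetochore gene *Cenpf* had 494, 989, 606 and 595 against 217, 199.8, 204 and 272 (log2 fold change 1.54 ± 0.26 (SE), adjusted p = 0.00107), and the spindle motor *Kif11* 191, 364, 251 and 206 against 77.3, 109.7, 74.8 and 93.2 (log2 fold change 1.47 ± 0.23 (SE), adjusted p = 4.20e-04). *Cdc20* (ENSMUSG00000006398, chromosome 4 from 118432901 to 118437352), an activator of the anaphase-promoting complex, had 90.0, 118, 52.9 and 77.9 against 39.2, 41.3, 38.5 and 20.3 (log2 fold change 1.25 ± 0.31 (SE), adjusted p = 0.0176; log2 1.02, adjusted p = 0.0529 without HFSC replicate 4, and not called without Thy1- replicate 1 or 2 either). In Thy1- replicate 4, the library nearest to HFSCs on the first component, all 6 genes were also above every HFSC library.

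**Figure D5:**
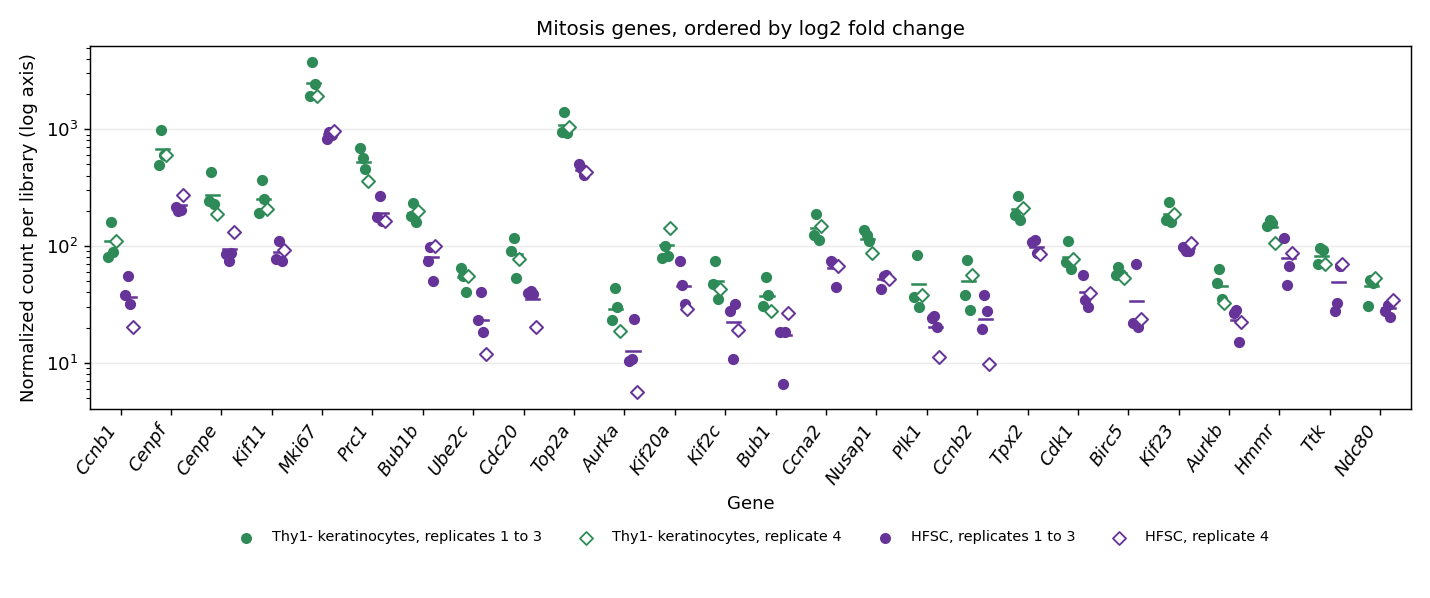
Normalized count of each library (log axis) for the 26 mitosis genes tested, ordered by log2 fold change. Short lines are means of 4 libraries, and open diamonds are replicate 4. The Thy1- mean lies above the HFSC mean in each gene, and the libraries do not overlap in 20 of the 26.

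The promoters of 3 of these genes are shown because cell cycle genes are known to share CCAAT boxes and, near the start, the motif TTTGAA of the cell cycle homology region. The sequences are the RefSeq windows on GRCm38.p6, the assembly of mm10, from 250 bases before to 50 after the start, 5′ to 3′ on the strand of the gene. Capitals mark CCAAT or its reverse complement ATTGG, and TTTGAA or its reverse complement TTCAAA, which do not overlap here. The windows are chr13:100786437-100786736 (minus strand) for *Ccnb1*, chr4:118437294-118437593 (minus strand) for *Cdc20* and chr11:99024140-99024439 (minus strand) for *Top2a*.
Ccnb1: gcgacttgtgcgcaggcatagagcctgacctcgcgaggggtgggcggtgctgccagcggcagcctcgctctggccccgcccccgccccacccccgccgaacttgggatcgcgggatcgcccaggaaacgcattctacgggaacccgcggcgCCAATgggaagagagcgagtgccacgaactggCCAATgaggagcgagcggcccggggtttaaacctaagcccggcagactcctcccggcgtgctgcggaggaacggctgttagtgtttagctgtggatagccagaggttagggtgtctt
Cdc20: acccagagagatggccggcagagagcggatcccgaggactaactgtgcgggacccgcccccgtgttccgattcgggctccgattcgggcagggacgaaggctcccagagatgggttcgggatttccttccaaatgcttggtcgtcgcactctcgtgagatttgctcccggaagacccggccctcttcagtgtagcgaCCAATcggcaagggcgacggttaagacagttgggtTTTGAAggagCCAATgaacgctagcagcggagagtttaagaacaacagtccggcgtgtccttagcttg
Top2a: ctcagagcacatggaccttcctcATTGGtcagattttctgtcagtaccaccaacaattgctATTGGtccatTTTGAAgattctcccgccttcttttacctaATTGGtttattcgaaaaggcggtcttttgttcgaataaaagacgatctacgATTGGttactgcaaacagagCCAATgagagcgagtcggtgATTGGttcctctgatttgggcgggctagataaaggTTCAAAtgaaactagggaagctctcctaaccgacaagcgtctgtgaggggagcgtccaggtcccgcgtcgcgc
*Ccnb1* holds CCAAT at 99 and 67 bases before the start and no TTTGAA, *Cdc20* holds TTTGAA at 18 bases between CCAAT at 53 and 8 bases before it, and *Top2a* holds 6 CCAAT boxes on either strand and 2 TTTGAA motifs. Of the 26 mitosis genes, 21 had a single window in the table, and CCAAT was found in 17 of 21 (81%) and TTTGAA in 16 of 21 (76.2%). Among all genes tested with a single window, the counts were 3215 of 8186 (39.3%) and 1017 of 8186 (12.4%). Over the genes called higher, they were 122 of 281 (43.4%) and 52 of 281 (18.5%), and over those called lower 119 of 367 (32.4%) and 31 of 367 (8.45%). These counts are descriptions, and both motifs were chosen after the mitosis calls were seen.

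A further 5 motifs were counted on both strands of the same windows. CACCC, read by Krüppel-like factors, was in 273 of 367 (74.4%) of the genes called lower, 176 of 281 (62.6%) of those called higher and 5045 of 8186 (61.6%) of all tested. The AP-1 motif TGACTCA was in 10 of 367 (2.72%), 14 of 281 (4.98%) and 300 of 8186 (3.66%). For the TCF/LEF motif ATCAAAG, the counts were 14 of 367 (3.81%), 6 of 281 (2.14%) and 213 of 8186 (2.6%). For the homeodomain motif TAATTA, they were 6 of 367 (1.63%), 3 of 281 (1.07%) and 209 of 8186 (2.55%), and for the GATA motif AGATAA 18 of 367 (4.9%), 11 of 281 (3.91%) and 537 of 8186 (6.56%). A match says only that the letters occur in the window.

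Of 26 S-phase genes, 1 rose, the replication helicase gene *Mcm4* (379.9 ± 72.3 against 237 ± 58.6; log2 0.70, adjusted p = 0.0392), and the median of the list was 0.38. That call was not made without HFSC replicate 1 or 4 or Thy1- replicate 1, 3 or 4. A count of 1 in 26 is near the 3.21% of all genes tested that were called higher. Of the 26, 9 had an unadjusted p under 0.05 in limma, and 3 were called higher by edgeR and 6 by DESeq2. In 5 every Thy1- library lay above every HFSC library, against 6.5% of all genes. The RNA of replication-dependent histone genes is made in S phase and mostly lacks a poly(A) tail. Of 47 of these genes tested, 15 rose and 0 fell (median 0.89), against 3.21% and 4.4% of all genes tested. The rises numbered 9 without Thy1- replicate 1, 2 or 3 in turn, 10 without HFSC replicate 4 or 1, and 12 to 16 without another library. The linker histone *Hist1h1d* had 444, 591, 823 and 567 in Thy1- cells and 253, 312, 234 and 185 in HFSCs (log2 fold change 1.29 ± 0.21 (SE), adjusted p = 7.38e-04). Histone genes share near-identical sequences, so their counts may be split between copies, and how their recovery differed between the kits was not tested. Of 12 cell cycle inhibitor genes, 0 were called by limma (median -0.28), with 6 at an unadjusted p under 0.05, 1 by edgeR and 1 by DESeq2, and 2 were called lower without replicate 4 of either population or of both.

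Transcription factors of the epidermal lineage moved both ways, with 6 of 25 higher and 3 lower (median 0.77). Over all genes tested, 3.21% were higher and 4.4% lower. *Gata3*, a factor of epidermal and follicle differentiation, had 6174, 3329.9, 3317 and 2719.8 in Thy1- cells and 1496, 1772, 1845 and 1314 in HFSCs (log2 fold change 1.21 ± 0.24 (SE), adjusted p = 0.00386). *Klf5*, a Krüppel-like factor of proliferating epithelia, had 5813, 3495, 3369 and 2948 against 1882, 1454, 1629 and 639.7 (log2 fold change 1.54 ± 0.36 (SE), adjusted p = 0.0124). *Ovol1*, a zinc finger factor of the exit from proliferation, had 1746, 1855, 1281 and 1088 against 480.2, 622, 665 and 79.9 (log2 fold change 2.03 ± 0.57 (SE), adjusted p = 0.0353). HFSC replicate 4 was the lowest library in all 3, and the populations did not overlap. Rises were also seen in the ETS factor *Ehf* (log2 2.01, adjusted p = 0.0193) and the differentiation regulator *Zfp750* (log2 1.73, adjusted p = 0.0426). Without HFSC replicate 4 the rises numbered 2, *Gata3* (log2 1.12, adjusted p = 0.0115) and *Klf5* (log2 1.19, adjusted p = 0.0381), and the median of the list was 0.39. They numbered 2 without Thy1- replicate 2 or 3 as well and 1 without Thy1- replicate 1, and *Gata3* was called whichever library was left out. The AP-2 factor *Tfap2b* fell, with 238, 283, 272 and 457 against 983, 704, 989.9 and 1282 (log2 fold change -1.67 ± 0.31 (SE), adjusted p = 0.00211), as did *Maf* (log2 -0.78, adjusted p = 0.00937) and the glucocorticoid receptor gene *Nr3c1* (log2 -0.86, adjusted p = 0.0147).

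Genes of antigen presentation by MHC class I rose in 8 of 16 cases and fell in 0 (median 0.77), with 6 to 9 rises when any 1 library was left out. Over all genes tested, 3.21% rose and 4.4% fell. *H2-K1* and *H2-D1*, the classical heavy chains, had 4364, 3255, 3522 and 3931 against 2337, 2144, 2867 and 1544 (log2 fold change 0.79 ± 0.17 (SE), adjusted p = 0.00806) and 3281, 2249, 2414 and 2948 against 1733, 1468, 1876 and 1263 (log2 fold change 0.78 ± 0.18 (SE), adjusted p = 0.0102). *H2-Q4*, a non-classical chain, had 1165, 709, 849.5 and 818 against 360.1, 417, 479 and 296 (log2 fold change 1.19 ± 0.19 (SE), adjusted p = 5.41e-04), and its relatives *H2-Q6* (log2 0.98, adjusted p = 7.74e-04) and *H2-Q7* (log2 1.11, adjusted p = 5.78e-04) rose as well. Thy1- replicate 1 was the highest library and HFSC replicate 4 the lowest in *H2-K1*, *H2-D1* and *H2-Q4*. *Tap1*, the peptide transporter, had 935, 798, 932 and 916 against 576, 564, 554 and 297 (log2 fold change 0.89 ± 0.20 (SE), adjusted p = 0.00989). *Nlrc5*, the transactivator of MHC class I genes, had 1542, 1643, 1844 and 1359.9 against 738, 771, 829 and 928 (log2 fold change 0.96 ± 0.19 (SE), adjusted p = 0.00442). The *H2* genes share near-identical stretches, so reads may be split between them. They and *Nlrc5* are among the genes whose values in Thy1- replicate 4 were put back from another row order, as are *Nfib*, *Nfatc1*, *Npnt*, *Nkd1*, *Nog*, *Zfp750*, *Notch1*, *Neo1* and *Nr3c1*. In the order as deposited, the 5 *H2* genes named here, *Nlrc5*, *Zfp750*, *Notch1*, *Neo1* and *Nr3c1* were not called (limma adjusted p = 0.0595 to 0.928). Interferon-stimulated genes were called in 0 of 25 cases by limma (median 0.67), with 4 at an unadjusted p under 0.05, 0 by edgeR and 0 by DESeq2.

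Other rises were 1 or 2 members of their lists, to be read beside the 3.21% of all genes tested that were called higher. The tight junction gene *Cldn1*, a claudin of the epidermal barrier, had 4819.6, 2959.7, 4197 and 2217 against 1166, 1429, 1542 and 477 (log2 fold change 1.69 ± 0.43 (SE), adjusted p = 0.0192), and it did not pass without HFSC replicate 4 (adjusted p = 0.058) or without Thy1- replicate 1 or 3. *Notch1*, the Notch receptor of epidermal differentiation, had 6559, 5884, 4782 and 6039.7 against 2746, 3807, 3705 and 1429 (log2 fold change 1.08 ± 0.27 (SE), adjusted p = 0.019), the only rise among 16 Notch genes, not called without Thy1- replicate 1. The chemokines *Cxcl10* (74.2, 64.8, 63.1 and 48.4 against 23.1, 19.6, 23.5 and 7.01; log2 fold change 1.83 ± 0.37 (SE), adjusted p = 0.00438) and *Ccl2* (58.4, 69.4, 89.1 and 40.2 against 23.1, 19.6, 21.4 and 8.41; log2 fold change 1.80 ± 0.40 (SE), adjusted p = 0.00927) rose from low levels, and *Cxcl14*, of the bulge list, was the only chemokine of 14 to fall. *Serpinb2*, a protease inhibitor of keratinocytes, had 10113, 4707, 8316 and 3567 against 3244, 2242, 2742 and 414 (log2 fold change 1.85 ± 0.54 (SE), adjusted p = 0.0418), and was not called without HFSC replicate 4 (log2 1.18, adjusted p = 0.103) or without Thy1- replicate 1, 2 or 3. *Bhlhe40*, a repressor of the clock, rose from 1736 ± 1043 to 4838 ± 1026 (SD, n = 4 each; log2 1.999, adjusted p = 0.0344) and was the only rise among 19 clock genes, not called without Thy1- replicate 1 or 3.

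The shared basal machinery was not called. Of 13 genes that anchor cells to the basement membrane, 0 were called by limma (median -0.12), with 2 at an unadjusted p under 0.05, 0 by edgeR and 1 by DESeq2. Of 15 desmosome genes 0 were called (median 0.39), with 2 at an unadjusted p under 0.05, 1 by edgeR and 1 by DESeq2. *Krt5* had 33620.2, 22526, 26111 and 43685 in Thy1- cells and 39645, 37535, 43698 and 16239 in HFSCs (log2 fold change -0.072 ± 0.43 (SE), adjusted p = 0.934), with a 95% interval of the difference of -0.98 to 0.83. *Krt14* had 40609, 27508, 33318 and 38378 against 29855, 26882, 28025 and 9872 (log2 fold change 0.67 ± 0.43 (SE), adjusted p = 0.341; interval -0.23 to 1.57). Intervals of this width do not show equal levels. *Krt15*, a keratin of basal and bulge cells, had 14116, 10909.6, 15459.6 and 31533 against 50076, 44723, 50366 and 22299 and did not pass the test (log2 fold change -1.27 ± 0.47 (SE), adjusted p = 0.0993). Replicate 4 of each population lay between the other libraries of the populations, at 31533 in Thy1- cells and 22299 in HFSCs, and without Thy1- replicate 4 the fall was called (adjusted p = 0.0393).

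Differentiation genes were not called either, apart from *Calml3* (log2 -2.42, adjusted p = 0.0216) among 16 suprabasal genes (median 0.021), a call not made without HFSC replicate 1 or 3 or Thy1- replicate 1 or 3. Of 52 cornified envelope genes in the table, 31 passed the minimum and 0 were called by limma, with 1 at an unadjusted p under 0.05, 0 by edgeR and 0 by DESeq2. Their median of 1.22 was 0.22 without HFSC replicate 4. Immediate early genes were called in 0 of 22 cases, with 1 at an unadjusted p under 0.05, 0 by edgeR and 0 by DESeq2. They had a median of 0.56 that turned to -0.30 without that library, and without replicate 4 of both populations 6 of the 22 were called lower (median -0.43). The 8 genes of the upper follicle and junctional zone, the follicle part next to the epidermis, gave 0 calls (median 0.13), with 1 at an unadjusted p under 0.05, 1 by edgeR and 1 by DESeq2.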

How the data were processed

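RNA was sequenced from 4 Thy1- and 4 HFSC libraries, 2 of 5 populations in 20 libraries. Per the labels and the study's methods, STAR alignments to mm10 were counted per Ensembl gene with featureCounts by the authors (versions and strand setting not given in the sources used here). The deposited values are a signal, counts that the authors divided by DESeq2 size factors. All values came out as whole reads within 0.1. Symbols, identifiers and coordinates are those of the table. In the column of Thy1- replicate 4 the values followed another order of gene names: 3212 genes were concerned (1162 of those tested), and its correlation over the expressed ones with the averaged log2 values of Thy1- replicates 1 to 3 was 0.0354 as deposited and 0.936 once put back, and the restored order was used.

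Genes that reached a value of 10 in 3 or more of the 8 libraries were tested on log2(value + 1) with limma 3.58.1 (trended variance, 1 mean per population, all 20 libraries), adjusted by Benjamini-Hochberg over 15012 genes at 0.05. Fold changes are on this scale and understate changes of low genes. Named genes were the 10 largest changes in each direction (mean of at least 100, no overlap) and list members. Members and lists were chosen with earlier results of these data known. The scripts were tested on simulated data. Alternatives included edgeR 4.0.16 and DESeq2 1.42.0 on the recovered reads. Exact permutation of 4 against 4 libraries cannot go below p = 0.0286. Promoter windows are from RefSeq on GRCm38.p6. A few list members are not reported here by name.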

Additional observations from a re-analysis of the deposited data

Results flagged for a closer look

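Values in which 1 library lay apart from the other 3 of its population (the gap to the nearest, over the range, above Dixon's critical value for 4 samples) were found in 26 of 310 sets of 4, where chance gives about 1 in 20. HFSC replicate 4 was the library apart in 13 of them and the lowest in 11. Among genes that rose in Thy1- cells, its values against the range of the other HFSC libraries were 37.8 against 869 to 979.6 for *Ifi202b*, 220.0 against 2583 to 3033 for *Tnfaip3*, 20.3 against 38.5 to 41.3 for *Cdc20*, 297 against 554 to 576 for *Tap1* and 172 against 2234 to 2298 for *Bhlhe40*. Among genes that fell they were 11.9 against 38.5 to 42.4 for *Fzd9* and 39.9 against 58.8 to 62.3 for *Smad6*, and, as the highest library, 129.6 against 68.4 to 78.5 for *Hoxa3*. Among genes not called they were 429.5 against 786 to 812 for *Foxc1*, 9872 against 26880 to 29850 for *Krt14*, 399 against 12337 to 13931 for *Fos* and 741 against 13780 to 14911 for *Jun*. The mitochondrial share outside *Rn45s* in this library was 31.5 against 12.0 to 15.0%.

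HFSC replicate 2 was apart in *Sfrp1* (4050.0 against 882 to 1253), *Npnt* (1405 against 317 to 349.6), *Tcf7l1* (287 against 114 to 136) and *Mitf* (453 against 720.3 to 762), and also in *Fads1* (72.8 against 20.3 to 28.9) and *Il20ra* (46.7 against 119 to 134). Thy1- replicate 4 was the highest in *Boc* (502 against 334 to 362), *Maf* (794 against 548 to 578), *Fos* (14599 against 5416 to 6693) and *Jun* (17277 against 12251 to 12493). Thy1- replicate 1 was the lowest in *Chat* (8.51 against 19.7 to 21.3) and *Fzd3* (82.7 against 130.2 to 134), and Thy1- replicate 2 in *Tap1* (798 against 916 to 935). These values were described and no cause of them was tested.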

How the results depend on the processing

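The number of genes called depended on the libraries and on the test. DESeq2 called 2368 (1051 higher, 1317 lower) and edgeR 1449, against 1142 (482 higher, 660 lower) in limma, with a median of all genes of -0.0026. Higher genes numbered 295 with no filter, 877 with libraries scaled to the same total, 896 with quantile normalization and 236 with only the 8 libraries in the fit. Leaving out 1 library gave 544 to 1831 genes, 169 to 960 higher and 375 to 871 lower, with the lowest counts without Thy1- replicate 1 and the highest without Thy1- replicate 4. Without Thy1- replicate 2 or 3 the counts were 699 and 626, and without replicate 4 of both populations 2118 (1055 higher, 1063 lower). A replicate block gave 497 (153 higher, 344 lower), with 9 mitosis, 4 histone and 4 MHC class I genes higher and 5 WNT receptors lower. Whether the replicate numbers pair the samples is not known. Same-numbered samples correlated in their deviations at -0.028, 0.18, -0.17 and -0.24, and with 4 libraries per population such values cannot decide it. Alternatives chosen after seeing the data gave 63 (1 higher, 62 lower) for Thy1- replicate 4 alone against HFSCs, 70 (2 higher, 68 lower) against HFSC replicates 1 to 3, where the lone library is assumed to vary like the others, and 719 (230 higher, 489 lower) with the mean of 4 Y-linked genes as a covariate. Of 91 named genes called lower, 57 kept the call under all 21 of the other settings that gave a p, leaving aside those chosen after seeing the data, and of 44 called higher, 12. Without Thy1- replicate 1, 22 of the named rises and 24 of the named falls were not called, against 11 and 6 without HFSC replicate 4. In the deposited row order *H2-Q4* (-0.14), *H2-K1* (-1.14), *H2-D1* (-2.10), *H2-Q6* (-1.41) and *Notch1* (-2.06) reversed, as the values of other genes stood in their rows. *Thy1* ran from -0.014 to 0.71 when 1 library was left out and was -0.020 without both replicates 4. *Krt5* ran from -0.40 to 0.077, and was 0.059 at the same total, 0.19 with quantile normalization, and 0.45 and 0.12 in both comparisons of Thy1- replicate 4 alone, where *Col17a1* was 0.061 against all HFSCs. None of these 3 genes was called under the alternatives named. The cause of the other changes was not tested.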

Other observations

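Several further gene groups held calls, to be read beside the shares over all genes tested, 3.21% higher and 4.4% lower in Thy1- cells. Of 10 S100 genes, 3 fell: *S100a4*, *S100a6* (609.7 ± 99.4 against 1822 ± 827, SD, n = 4 each; log2 -1.42, adjusted p = 0.0236 in limma) and *S100a1* (log2 -1.77, adjusted p = 0.00404). *S100a4* is also in the bulge list, so its fall is not independent of the label. The retinoic acid-degrading enzyme *Cyp26b1* had 113, 111, 109 and 104 in Thy1- cells and 307, 338, 402 and 174 in HFSCs (log2 -1.41, adjusted p = 0.026), the only call among 22 retinoid genes. The fatty acid desaturase *Fads1* was the only call among 30 genes of sterol and fatty acid synthesis (log2 -1.86, adjusted p = 0.0136). Cytokine receptor genes rose in *Il4ra* (666, 768, 613 and 484 against 347, 439, 299 and 153; log2 1.11, adjusted p = 0.0263) and *Il20ra* (log2 1.39, adjusted p = 0.0392), 2 of 17 interleukin and alarmin genes. The metalloproteinase *Mmp28* (log2 1.63, adjusted p = 0.0115) rose with *Adam8* among 24 matrix protease genes, and the membrane protease *St14* (log2 1.16, adjusted p = 0.0321) with *Serpinb2* among 15 protease and inhibitor genes. In the clock list *Bhlhe41* (log2 -1.91, adjusted p = 0.0193) and *Cry2* (log2 -0.80, adjusted p = 0.036) fell, and in the Notch list the coactivator *Maml2* fell (log2 -1.18, adjusted p = 0.0124). Without Thy1- replicate 1, 0 interleukin and alarmin genes and 0 protease and inhibitor genes were called higher by limma, and 0 clock genes and 0 retinoid genes lower.

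Of 16 EGF receptor and ligand genes 0 were called by limma, with 7 at an unadjusted p under 0.05, 2 by edgeR and 5 by DESeq2, and 2 were called higher without HFSC replicate 2 or Thy1- replicate 4. The counts for 11 *Skint* genes, a family of epidermal immunoglobulin-like proteins, were 0 by limma, with 2 at an unadjusted p under 0.05, 0 by edgeR and 0 by DESeq2, and for 24 metallothionein, glutathione and NRF2 target genes 0 by limma, with 4 at an unadjusted p under 0.05, 0 by edgeR and 1 by DESeq2.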
